A study of Mus musculus with 10 samples.

Results

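The transcripts of 10 genes of NF-kB and tumor necrosis factor (TNF) signalling were followed in brain endothelial cells (BECs) of APP/PS1 mice and controls. They comprised the subunit genes Nfkb1, Rela, Nfkb2 and Relb, the regulators Nfkbia, Nfkbiz and Tnfaip3, the receptors Tnfrsf1a and Ltbr, and the survival gene Birc3. The genes were chosen by name for their place in the pathway and matched to the deposited table by GENCODE M21 symbols. All 10 were found among the 14106 genes of that table.

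None of the 10 genes passed the test between APP/PS1 and control BECs at an adjusted p of 0.05, and 0 of all 14106 genes did. Their mean differences lay between -0.07 and 0.09 on the log2 scale, with 7 higher and 3 lower. All 10 were lower in the APP/PS1 library of pair 2 and higher in that of pair 4, as 30.6% of all genes were. In pair 5, 9 of the 10 were higher, beside 47.8% of all genes. In pairs 1 and 3 the directions were mixed, with 6 and 4 of the 10 higher, beside 49.1% and 48.4%. With libraries scaled by their totals alone, 8 of the 10 were lower in pair 2 and 8 higher in pair 4. The shares of all genes in those directions were 33.8% and 27.3%. Nfkb1 and Ltbr varied least from pair to pair, and Tnfaip3 and Nfkbia varied most.

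BECs had been isolated from the cortex of female mice with microbeads, as CD31+ CD45- cells after removal of myelin, and their RNA was sequenced. The 5 APP/PS1 libraries came from 1 year old mice carrying the APPswe and PS1ΔE9 transgenes, and the 5 control libraries from wild type (WT) females of the same age and of the same C3H/BL6 background. Each APP/PS1 library shared its replicate number with a control library and was processed in the same batch, and the labels put replicates 4 and 5 of both groups in 1 batch. The transgenes model amyloid deposition only, and the labels do not say whether a library was 1 mouse or a pool, so p-values here measure the spread between these libraries, part of which may be technical.

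NF-kB is a family of dimeric transcription factors that inhibitor proteins hold in the cytoplasm of resting cells. In the canonical route, TNF or interleukin-1 activates a kinase complex that marks the inhibitor IκBα for destruction, and dimers of p50 and RelA enter the nucleus. In the noncanonical route, receptors such as that for lymphotoxin β lead to the processing of p100 to p52, which pairs with RelB. In endothelium these dimers switch on adhesion molecules and chemokines that draw leukocytes to the vessel wall, together with their own inhibitors, which end the response.

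The promoters of 5 of the genes show where the DNA letters that NF-kB recognizes lie upstream of its own regulators. The sequences below are the 250 bases before the start site, 5′ to 3′ on the strand of the gene, taken from RefSeq on GRCm38.p6. They lie at chr12:55492648-55492897 for Nfkbia (minus strand), chr10:19015411-19015660 for Tnfaip3 (minus), chr19:46304487-46304736 for Nfkb2 (plus), chr9:7873171-7873420 for Birc3 (minus) and chr19:5637291-5637540 for Rela (plus). Capitals mark the core of the κB motif, GGGNNNNNCC, on either strand, and overlapping matches form 1 longer run of capitals.
Nfkbia: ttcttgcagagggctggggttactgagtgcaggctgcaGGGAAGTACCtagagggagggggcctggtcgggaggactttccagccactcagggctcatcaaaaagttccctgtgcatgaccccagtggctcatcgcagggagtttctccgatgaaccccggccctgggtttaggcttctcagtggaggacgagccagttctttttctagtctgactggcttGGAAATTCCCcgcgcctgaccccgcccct
Tnfaip3: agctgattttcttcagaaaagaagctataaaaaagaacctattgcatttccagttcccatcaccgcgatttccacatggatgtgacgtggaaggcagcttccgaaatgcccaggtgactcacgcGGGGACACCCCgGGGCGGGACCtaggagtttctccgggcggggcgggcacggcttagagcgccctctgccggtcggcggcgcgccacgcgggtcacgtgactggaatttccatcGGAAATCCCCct
Nfkb2: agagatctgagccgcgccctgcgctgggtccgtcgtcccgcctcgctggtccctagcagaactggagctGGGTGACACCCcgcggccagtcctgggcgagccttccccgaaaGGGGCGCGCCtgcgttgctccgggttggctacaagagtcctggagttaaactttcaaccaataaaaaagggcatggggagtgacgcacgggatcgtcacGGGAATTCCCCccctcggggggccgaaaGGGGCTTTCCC
Birc3: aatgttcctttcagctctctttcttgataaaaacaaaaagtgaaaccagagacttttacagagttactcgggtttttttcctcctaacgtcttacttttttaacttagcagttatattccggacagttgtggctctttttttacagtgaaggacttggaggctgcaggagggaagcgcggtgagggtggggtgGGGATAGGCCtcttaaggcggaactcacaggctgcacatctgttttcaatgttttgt
Rela: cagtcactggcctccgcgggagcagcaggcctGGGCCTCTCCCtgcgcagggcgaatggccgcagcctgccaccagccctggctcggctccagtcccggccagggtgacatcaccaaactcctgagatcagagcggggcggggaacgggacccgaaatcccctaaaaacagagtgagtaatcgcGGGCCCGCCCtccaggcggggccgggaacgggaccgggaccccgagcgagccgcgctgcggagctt
Nfkbia, Tnfaip3 and Nfkb2 were shown because each held a match to a stricter form of the motif, GGGNNTTTCC, and Birc3 and Rela as examples with the core but without the stricter form, which was also the case for Ltbr and Tnfrsf1a. The stricter match began 29 bases before the start site in Nfkbia (GGAAATTCCC, the reverse strand reading), 12 bases before it in Tnfaip3 (GGAAATCCCC, likewise) and 11 bases before it in Nfkb2 (GGGGCTTTCC). Windows of 250 bases before to 50 bases after a start site were available for 7 of the 10 genes, 10 windows in all. Of all 32851 RefSeq windows of that length, 50.8% held the core on either strand and 1.63% held the stricter form, every match of which is also a match of the core. The core was present in all 10 windows of the 7 genes and the stricter form in 5 windows of 3 genes, including a second site of Nfkb2 (GGGACTTTCC) that 2 overlapping windows share. The stricter form was added after the sequences had been seen. Nfkb1, Relb and Nfkbiz had no window in the table. A match describes letters in these windows only and was not tested as a binding site.

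The libraries held 22371766 to 126686149 adjusted counts, the whole numbers behind the deposited log2 CPM, which are log2 values of counts scaled to the size of the library. These numbers had already been corrected for batch, so they are not reads. The 2 libraries of a pair lay at nearly equal distances above and below the same mean: the median standard deviation (SD) of the pair means over all genes was 0.0035, against 0.086 for the distance of a library from its pair mean. Each pair therefore carries 1 independent quantity per gene, the difference between APP/PS1 and control, and high and low libraries below are read as pairs. Endothelial markers had a median level of 10.2 log2 CPM over 15 genes, against 0.40 for 10 markers of microglia and macrophages, of which none had a library at 0. Markers of mural cells summed to 576 to 971 CPM in control and 294 to 574 CPM in APP/PS1 libraries. Those of oligodendrocytes summed to 41.6 to 277 CPM in control and 33.6 to 142 CPM in APP/PS1 libraries. In bulk samples, fewer cells of a type and less RNA per cell cannot be told apart.

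Nfkb1 encodes p105, the precursor of the p50 subunit (ENSMUSG00000028163, chr3:135584655-135691547, minus strand, GRCm38). Its level was 7.02, 7.11, 7.06, 7.06 and 7.01 log2 CPM in control libraries 1 to 5, and 7.14, 7.05, 7.11, 7.10 and 7.15 log2 CPM in APP/PS1 libraries 1 to 5. The groups overlapped, and APP/PS1 was the higher library in every pair but pair 2. The mean difference was 0.05 ± 0.05 (standard error, SE) on the log2 scale, with a 95% interval of -0.06 to 0.17 (limma adjusted p = 0.845, n = 5 pairs). As a ratio, that interval reached from 0.956-fold to 1.13-fold. Gm43430, a gene model still to be established by experiment, lies within Nfkb1 on the same strand over 3897 bases, and how reads there were assigned was not stated.

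Rela encodes RelA, or p65, which carries the activation domain of the canonical dimer (ENSMUSG00000024927, chr19:5637483-5648130, plus strand). Control libraries 1 to 5 held 7.17, 7.37, 7.32, 7.13 and 7.18 log2 CPM, and APP/PS1 libraries held 7.35, 7.15, 7.20, 7.39 and 7.34 log2 CPM. The 2 groups covered almost the same range, with APP/PS1 higher in pairs 1, 4 and 5 and lower in pairs 2 and 3. The difference was 0.05 ± 0.09 (SE, 95% interval -0.16 to 0.26, limma adjusted p = 0.920).

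Nfkb2 encodes p100, the precursor of p52 and itself an inhibitor (ENSMUSG00000025225, chr19:46304320-46312385, plus strand). Its control values were 5.36, 5.74, 5.53, 5.42 and 5.50 log2 CPM, and its APP/PS1 values 5.71, 5.33, 5.56, 5.67 and 5.59 log2 CPM. APP/PS1 was higher in 4 pairs, and the lowest APP/PS1 value stood beside the highest control value in pair 2. On average APP/PS1 exceeded control by 0.06 ± 0.11 (SE, 95% interval -0.22 to 0.34, limma adjusted p = 0.925). Psd lies on the other strand and overlaps the end of Nfkb2 over 299 bases, the noncoding AC114539.1 overlaps its start over 1292 bases, and whether counting used the strand was not stated.

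Relb encodes RelB, the partner of p52 in the noncanonical dimer and a gene that NF-kB itself induces (ENSMUSG00000002983, chr7:19606217-19629438, minus strand). It was measured at 4.37, 4.81, 4.51, 4.35 and 4.50 log2 CPM in the control libraries and at 4.67, 4.21, 4.55, 4.70 and 4.57 log2 CPM in APP/PS1 libraries. As for Nfkb2, 4 pairs were higher in APP/PS1 and pair 2 was lower, here by 0.60 on the log2 scale. The average over pairs was 0.03 ± 0.15 (SE, 95% interval -0.33 to 0.39, limma adjusted p = 0.973). The sign of the Relb mean was negative when libraries were scaled by their total alone (-0.0072).

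Nfkbia encodes IκBα, the inhibitor that NF-kB induces within minutes of its own release (ENSMUSG00000021025, chr12:55489410-55492647, minus strand). The 5 control libraries held 10.33, 10.36, 10.19, 9.81 and 9.998 log2 CPM, and the 5 APP/PS1 libraries 9.95, 9.93, 10.12, 10.44 and 10.30 log2 CPM. Control replicate 4 was the lowest of all 10 libraries and APP/PS1 replicate 4 the highest, while pairs 1, 2 and 3 went the other way. The mean difference of 0.01 ± 0.17 (SE) had a 95% interval of -0.41 to 0.43 (limma adjusted p = 0.993). Its sign was negative with scaling by library total alone (-0.03).

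Nfkbiz encodes IκBζ, a nuclear protein of the inhibitor family that helps p50 to activate a subset of secondary targets (ENSMUSG00000035356, chr16:55811375-55838899, minus strand). Values were 8.63, 8.53, 8.54, 8.28 and 8.21 log2 CPM in control and 8.20, 8.33, 8.32, 8.58 and 8.63 log2 CPM in APP/PS1 libraries. Pairs 1 to 3 were lower in APP/PS1 and pairs 4 and 5, which share a batch label, were higher. Over the 5 pairs the difference averaged -0.03 ± 0.14 (SE, 95% interval -0.38 to 0.33, limma adjusted p = 0.975).

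Tnfaip3 encodes A20, a ubiquitin-editing enzyme that shuts down signalling from the TNF receptor (ENSMUSG00000019850, chr10:19000910-19015657, minus strand). Its levels were 7.05, 7.44, 7.29, 6.67 and 7.05 log2 CPM in control and 7.27, 6.85, 7.02, 7.55 and 7.28 log2 CPM in APP/PS1 libraries. The pair differences ran from -0.59 in pair 2 to 0.88 in pair 4, the widest span of the 10 genes. The mean difference was 0.09 ± 0.21 (SE, 95% interval -0.43 to 0.62, limma adjusted p = 0.940), so that changes as large as 0.744-fold or 1.53-fold lay within the interval.

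Tnfrsf1a encodes the main TNF receptor of most cells (ENSMUSG00000030341, chr6:125349362-125362484, plus strand). Control libraries held 6.80, 7.01, 7.07, 6.79 and 6.90 log2 CPM, and APP/PS1 libraries 6.98, 6.78, 6.71, 7.005 and 6.91 log2 CPM. The groups overlapped over nearly their whole ranges, and pair 3 had the lowest APP/PS1 value and the highest control value. Its difference averaged -0.04 ± 0.10 (SE, 95% interval -0.29 to 0.21, limma adjusted p = 0.954).

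Ltbr encodes the lymphotoxin β receptor, which feeds both routes (ENSMUSG00000030339, chr6:125306571-125313885, minus strand). It is a neighbour of Tnfrsf1a, with a gap of 35476 bases and 1 annotated gene between them. It was measured at 6.14, 6.15, 6.26, 6.08 and 6.20 log2 CPM in control and at 6.12, 6.10, 5.996, 6.18 and 6.06 log2 CPM in APP/PS1 libraries. APP/PS1 was lower in every pair except pair 4. The mean difference was -0.07 ± 0.06 (SE, 95% interval -0.23 to 0.08, limma adjusted p = 0.845).

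Birc3 encodes cIAP2, a ubiquitin ligase of the TNF receptor complex that protects cells from death and is induced by NF-kB (ENSMUSG00000032000, chr9:7848699-7873186, minus strand). Control values were 5.50, 5.75, 5.43, 5.20 and 5.41 log2 CPM, and APP/PS1 values 5.49, 5.21, 5.56, 5.75 and 5.58 log2 CPM. Pair 1 hardly differed, pair 2 was lower in APP/PS1 by 0.53 on the log2 scale, and pairs 3 to 5 were higher. APP/PS1 exceeded control on average by 0.06 ± 0.15 (SE, 95% interval -0.31 to 0.44, limma adjusted p = 0.946).

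**Figure D1:**
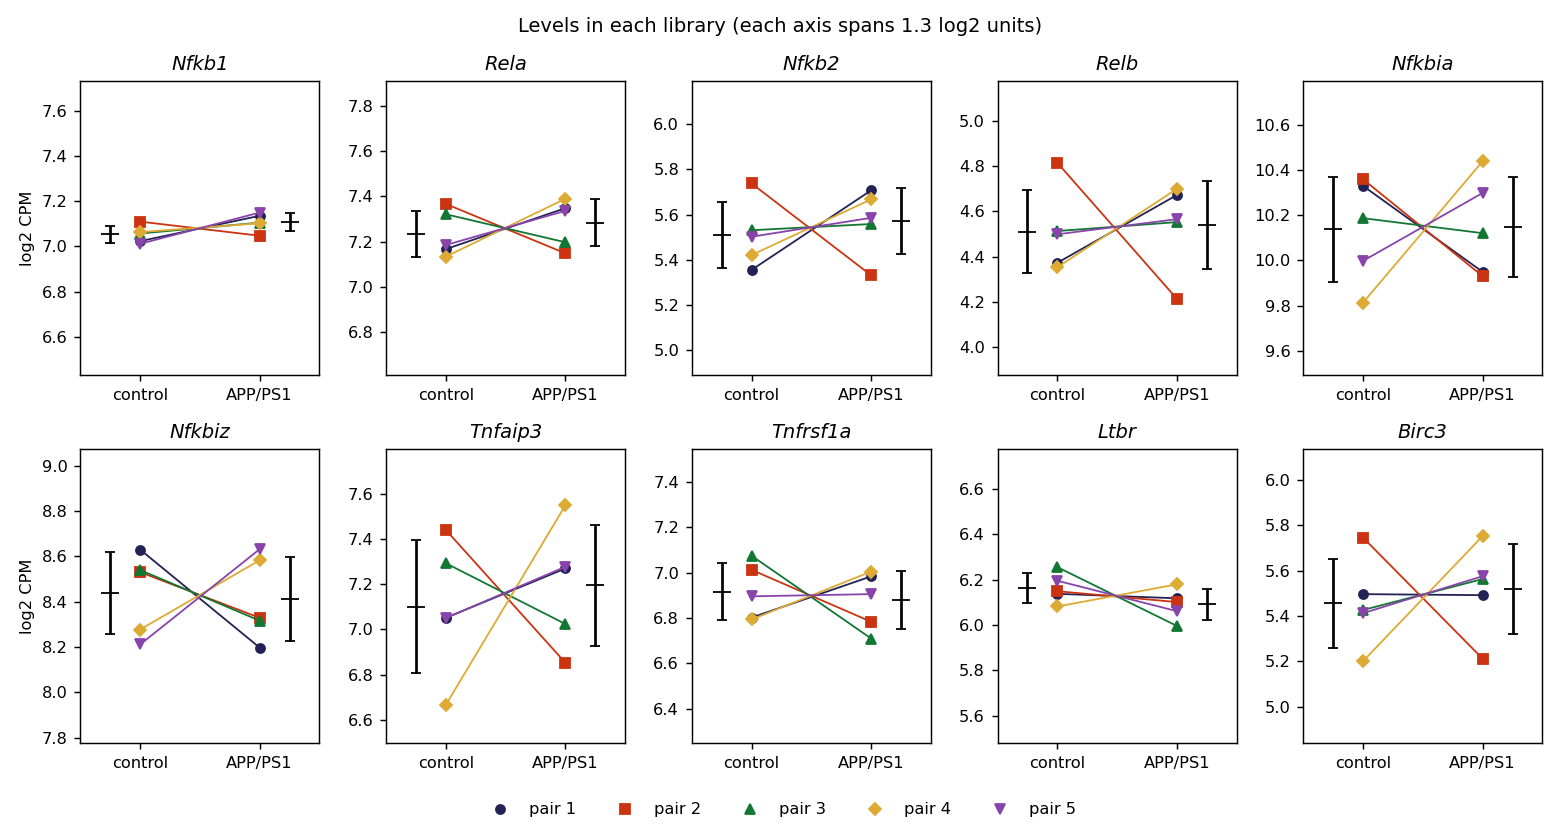
Level of each gene in log2 CPM (vertical axis, spanning 1.3 log2 units in every panel) in control and APP/PS1 libraries. Lines join the libraries of a pair, and bars beside them give the mean and SD of 5 libraries. The lines cross in every panel, with pair 2 sloping down and pair 4 sloping up in all 10 genes.

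Over the 10 genes, 0 passed an adjusted p of 0.05 in limma, against 0 of 14106 genes (0% of those tested). At an unadjusted p under 0.05 there were again 0 of the 10, against 1133 genes (8.03%, made up of 2.13% higher and 5.91% lower). None of the 10 differed in the same direction in all 5 pairs, which 7.99% of all genes did, and none had groups that did not overlap, which 7.88% of all genes had. Without the pairs as a block in the fit, 4.59% of all genes passed the adjusted threshold and 21.6% the unadjusted one, and again 0 of the 10 passed either, the smallest adjusted p among them being 0.297. The mean difference was above 0 for 7 of the 10, against 48.2% of all genes, and the median of the 10 was 0.04 against -0.0038 for all genes. With libraries scaled by their totals alone, 5 of the 10 were above 0. In single pairs under that scaling, 27.3% (pair 4) to 66.2% (pair 2) of all genes were higher.

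**Figure D2:**
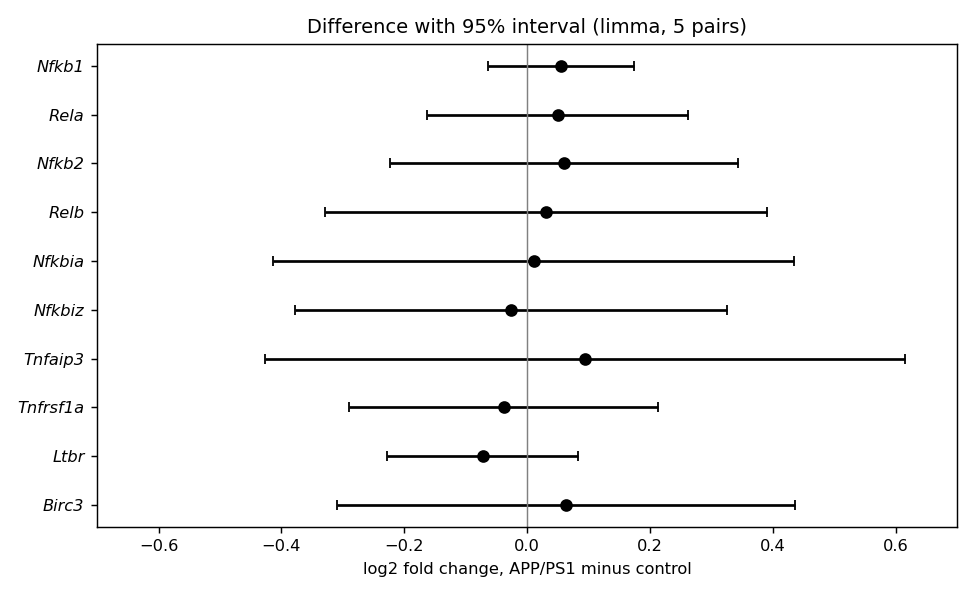
Mean log2 difference between APP/PS1 and control (horizontal axis) for each gene, with its 95% interval from limma over 5 pairs. Every interval includes 0, and the intervals of Nfkb1 and Ltbr are the narrowest.

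The genes differed in how much they varied from pair to pair. The SD of the 5 pair differences was 0.08 for Nfkb1 and 0.13 for Ltbr, against 0.45 for Nfkbia and 0.56 for Tnfaip3, with a median of 0.33 over the 10 and 0.17 over all genes. The receptors and the Nfkb1 and Rela subunits had SDs from 0.08 to 0.25. Those of Nfkb2, Relb, Birc3 and the regulators ran from 0.29 to 0.56. The 2 sets nearly meet, at 0.25 for Tnfrsf1a and 0.29 for Nfkb2. Rela (0.21) and Tnfrsf1a also lay above the median of all genes. No test was made of this split, which was seen in the data.

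Pairs 2 and 4 each showed a single direction over the 10 genes. In pair 2 the median difference of the 10 genes was -0.32 and all 10 were lower in APP/PS1, where 49.7% of all genes were lower. In pair 4 the median was 0.28 and all 10 were higher, where 48.9% of all genes were higher. Both directions held for 10 of the 10 genes and for 30.6% of all genes. In pairs 1, 3 and 5 the medians were 0.15, -0.10 and 0.14, with 6, 4 and 9 of the 10 higher in APP/PS1. Of all genes, 49.1%, 48.4% and 47.8% were higher in those pairs. The 10 genes regulate one another and are not independent, so the counts describe these libraries and no test was made.

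**Figure D3:**
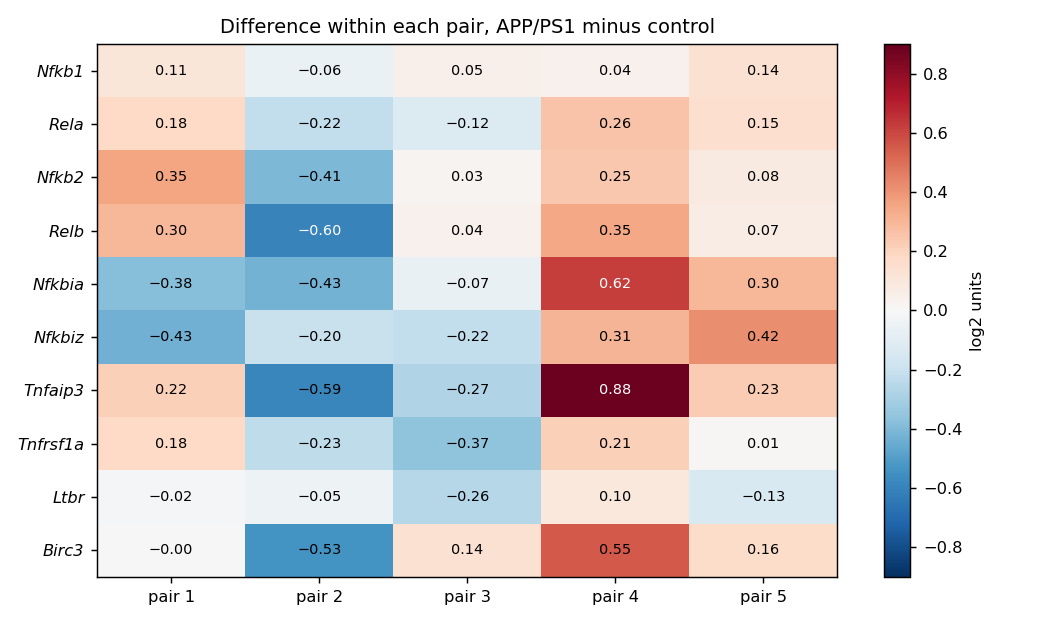
Log2 difference between APP/PS1 and control within each pair (columns) for each gene (rows), with red for higher and blue for lower in APP/PS1. The column of pair 2 holds only values below 0, from -0.60 to -0.05, and that of pair 4 only values above 0, from 0.04 to 0.88.

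Scaling bears on these counts. With library totals alone, 8 of the 10 genes were lower in pair 2 and 8 higher in pair 4, where the shares of all genes in those directions were 33.8% and 27.3%. Leaving out pair 4 put the median difference of the 10 at -0.08, with 2 of 10 above 0. Leaving out pair 2 put it at 0.12, with 9 of 10 above 0. The direction of the median over 5 pairs thus turned without pair 4 and held without pair 2.

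The wider pathway was read from 7 lists of 101 genes, of which 82 were in the table. No gene of these lists passed an adjusted p of 0.05 in limma, and 5 had an unadjusted p under 0.05. That is 5 of 82, beside the 8.03% of all genes. In the mean, 45 were higher and 37 lower in APP/PS1, with a median of 0.01, where 48.2% of all genes were higher. With library totals alone, 27 were higher. Under that scaling, 43.6%, 66.2%, 33.6%, 27.3% and 31.7% of all genes were higher in pairs 1 to 5.

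The remaining subunits and inhibitors followed the pattern of the pairs, with 6 of 6 lower in pair 2 and higher in pair 4, beside 30.6% of all genes. Rel, which encodes the c-Rel subunit, differed by -0.81 in pair 2 and 0.47 in pair 4, with a mean difference of -0.0028 ± 0.20 (SE, limma adjusted p = 0.999). Bcl3, a nuclear cofactor of p50 and p52, differed by -0.80 and 1.00 in the same pairs. It was named after its values were seen, as were Map3k14, Traf2, Tnfrsf1b, Selp, Sele, Icam1, Vcam1, Cxcl10, Fas and Il6 in the text that follows.

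Of the genes that carry the signal, 2 of 9 kinases and 6 of 19 adaptors and ubiquitin regulators were lower in pair 2 and higher in pair 4, beside 30.6% of all genes. Ikbkb, which encodes the kinase that marks IκBα, was at 7.05 ± 0.05 log2 CPM (SD, n = 5) in control and 7.11 ± 0.05 in the APP/PS1 group, and its pair differences stayed between -0.07 and 0.20. Map3k14, which encodes the kinase NIK of the noncanonical route, was one of these 2 kinases, at -0.75 in pair 2 and 0.42 in pair 4. Traf2, an adaptor of the TNF receptor, differed by 0.03 ± 0.04 (SE), with an SD of 0.01 in either group. Xiap, an inhibitor of caspases, differed by 0.0087 ± 0.06 (SE, limma adjusted p = 0.980). Tab3, an adaptor of the TAK1 kinase, was higher in APP/PS1 in 5 of 5 pairs, as 2.99% of all genes were. Its mean difference was 0.11 ± 0.05 (SE, limma adjusted p = 0.702). Traf1, an adaptor that NF-kB induces, was lower in 5 of 5 pairs (as 5% of all genes were) by 0.05 to 0.45 on the log2 scale, with a mean of -0.22 ± 0.07 (SE, limma adjusted p = 0.569).

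Among 10 TNF family ligands, 2 were in the table, and none of the others was analysed here. Tnfsf10, which encodes the death ligand TRAIL, differed by -0.05 ± 0.08 (SE, limma adjusted p = 0.918). Its APP/PS1 replicate 4 was at 7.12 log2 CPM, below the nearest APP/PS1 library at 7.31, and control replicate 4 was the highest control at 7.52. Of 10 other TNF family receptors, 4 were higher and 6 lower in the mean. Beside 30.6% of all genes, 3 of the 10 were lower in pair 2 and higher in pair 4. Those included Tnfrsf1b, the second TNF receptor, at -0.43 in pair 2 and 0.38 in pair 4, and the death receptor Fas at -0.28 and 0.60. Tnfrsf19, the most abundant of the list, differed by -0.02 ± 0.09 (SE, limma adjusted p = 0.968).

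Of 12 genes of interleukin-1 and Toll-like receptor input, 8 were lower and 4 higher in the mean. Both directions of pairs 2 and 4 held for 3 of the 12 (25%), beside 30.6% of all genes. In pair 3, 11 of the 12 were lower, with a median of -0.18, beside 50.9% of all genes. Il1r1, the interleukin-1 receptor, was at 8.42 ± 0.13 log2 CPM (SD, n = 5) in control and 8.09 ± 0.12 in the APP/PS1 group, lower in 4 of 5 pairs, with a mean difference of -0.33 ± 0.10 (SE, limma adjusted p = 0.569). Il18, a cytokine of the interleukin-1 family, was lower in 5 of 5 pairs, as 5% of all genes were. Its mean difference was -0.24 ± 0.07 (SE, limma adjusted p = 0.569). For Il1r1, control replicate 2 was the lowest control at 8.19 log2 CPM, and APP/PS1 replicate 2 was the highest of its group at 8.29. Without the pairs as a block, the limma adjusted p of Il1r1 was 0.0440 and that of Il18 was 0.0354. That fit passed 4.59% of all genes at 0.05, and it counts residual freedom that the batch correction had already used.

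Of 30 NF-kB target genes of endothelium, 24 were in the table. Of these, 19 (79.2%) were lower in pair 2 and higher in pair 4, beside 30.6% of all genes. The median difference of the list was -0.37 in pair 2 and 0.55 in pair 4. The targets included the adhesion molecules that bind leukocytes. Selp, or P-selectin, differed by 1.69, -2.14, -0.31, 1.36 and 0.50 in pairs 1 to 5, and Sele, or E-selectin, by 1.20, -1.27, -0.52, 0.96 and -0.27. Icam1 differed by -0.74 in pair 2 and 0.78 in pair 4, and Vcam1 by -0.57 and 0.37. The chemokine gene Cxcl10 differed by -1.03 and 0.87 in those pairs, and the cytokine gene Il6 by -0.94 and 0.80. The mean difference of Selp over 5 pairs was 0.22 ± 0.57 (SE, limma adjusted p = 0.952), a difference within the spread of its pairs.

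Ptgs2, which encodes cyclooxygenase 2 and was the most abundant target, differed by -1.15 in pair 2 and 0.78 in pair 4, with a mean of -0.20 ± 0.27 (SE, limma adjusted p = 0.893). Bcl2l1 and Cd83 were higher in APP/PS1 in all 5 pairs, as 2.99% of all genes were. For Bcl2l1, which encodes the survival protein Bcl-xL, the mean difference was 0.25 ± 0.08 (SE, limma adjusted p = 0.571). For Cd83, a surface protein of activated cells, it was 0.26 ± 0.08 (SE, limma adjusted p = 0.563). Without the pairs as a block, the limma adjusted p of Cd83 was 0.0336 and that of Traf1 was 0.0345. The same limit holds for these values, since 4.59% of all genes passed 0.05 in that fit and its residual freedom was already used.

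**Figure D4:**
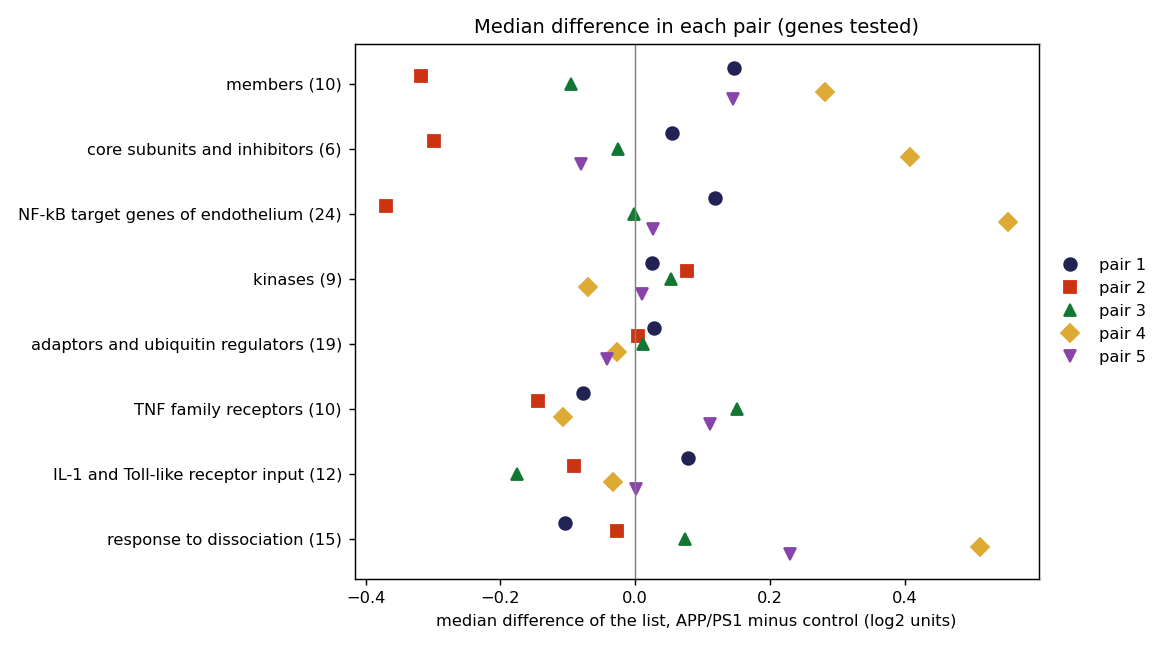
Median log2 difference between APP/PS1 and control in each pair (symbols) for the 10 genes, 6 lists of other pathway genes and a list of genes that respond to cell dissociation. The number of genes tested is in brackets. Pair 2 lies far left and pair 4 far right for the 10 genes, the other subunits and inhibitors, and the target genes, while the kinases and adaptors stay near 0.

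Other gene groups were measured beside the pattern. A list of 15 genes known to respond to tissue dissociation had a median difference of 0.51 in pair 4, where 15 of 15 were higher. In pair 2 its median was -0.03, with a range of -0.86 to 0.11, and 10 of 15 were lower. Both directions thus held for 10 of these 15 genes (66.7%), beside 30.6% of all genes. In pair 5 all 15 were again higher, with a median of 0.23, while in pair 1, 11 of 15 were lower. Over the 5 pairs the mean difference was above 0 for 15 of 15, with a median of 0.10, beside 48.2% of all genes. Fos, an immediate early gene and the most abundant of the list, differed by 0.01 in pair 2 and 0.56 in pair 4. Mural cell markers differed by a median of -0.32 in pair 2 and -1.45 in pair 4, and 0 of 9 had both directions. Oligodendrocyte markers had medians of 0.65 and -1.93 in those pairs, neuron markers 0.08 and -1.13, and astrocyte markers 0.06 and -0.44. Both directions held for 0 of 8, 1 of 5 and 2 of 9 of these markers. Microglia and macrophage markers had medians of 0.22 and 0.07 in those pairs, and endothelial markers -0.05 and 0.11, with 9 of 15 in both directions. Junb, of the dissociation list, differed by 0.11 in pair 2 and 0.51 in pair 4, and Acta2, a mural cell marker, by -0.32 and -1.35. Slco1c1 and Flt1, of the endothelial markers, differed by 0.08 and -0.02 in pair 2 and by 0.19 and 0.11 in pair 4. The part of these genes in the result was not tested.

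Levels were compared between the genes per length, as log2 CPM less log2 of the exon length in kilobases. That length merges all annotated exons of a gene over all its transcripts, so it can exceed the transcript made in these cells. It was 12061 bases for Nfkb1 and 3072 for Rela, whose mean levels before division were 7.08 and 7.26 log2 CPM. The order below therefore depends on the annotation. Nfkbia was by far the most abundant, with a control mean of 9.45 ± 0.23 (SD, n = 5) log2 CPM per kilobase. Nfkbiz followed at 6.11 ± 0.18, Rela at 5.61 ± 0.10, Tnfrsf1a at 5.54 ± 0.13 and Ltbr at 4.93 ± 0.07 on the same scale. Tnfaip3 stood at 4.25 ± 0.29, Nfkb1 at 3.46 ± 0.04, Nfkb2 at 3.31 ± 0.14, Birc3 at 3.13 ± 0.20 and Relb at 2.55 ± 0.18. The inhibitor Nfkbia thus exceeded the next gene, Nfkbiz, by 3.36 ± 0.10 (SD, n = 10 libraries) log2 units. The order held in 10 of 10 libraries for every pair of neighbours except Nfkb1 over Nfkb2 and Nfkb2 over Birc3, which held in 9 of 10. The 10 libraries are not independent, since the batch correction had made the pair means nearly equal, so these counts only describe them. Rela exceeded Tnfrsf1a by only 0.12 ± 0.07 (SD) and Nfkb1 exceeded Nfkb2 by 0.15 ± 0.11, gaps close to the spread between libraries.

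**Figure D5:**
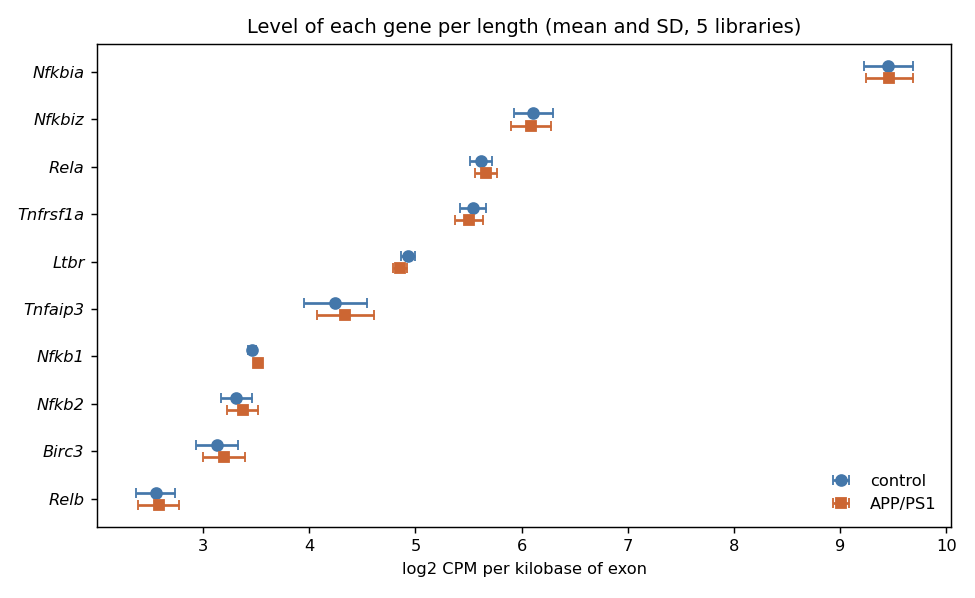
Mean level of each gene in log2 CPM per kilobase of exon (horizontal axis), with SD over 5 libraries, for control (circles) and APP/PS1 (squares). Exon length merges all annotated exons of a gene. Both groups give the same order, from Nfkbia at the top to Relb at the bottom.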

How the data were processed

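RNA of BECs from 5 APP/PS1 and 5 control libraries was analysed from the log2 CPM table that the authors deposited. According to the methods and labels, the authors aligned reads to mm10 with STAR, counted them with HTSeq, filtered and normalized them with edgeR and corrected for batch with ComBat of sva, and the versions are not given in the sources used here. The deposited log2 values converted back to whole numbers (100% within 0.01, prior count 3), here called adjusted counts, and the 10 single files equalled the table. A correction of log2 values would not be expected to leave whole numbers, so the step at which batch was corrected is uncertain. Since the correction had removed differences between pairs, a fit that ignores the pairs has residual freedom that was already used.

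Genes were named with GENCODE M21. Differences were fitted with limma 3.58.1 in R 4.3.3 (lmFit and eBayes, two-sided) on all 14106 genes, with genotype and the 5 replicate pairs as terms, and p-values were adjusted by Benjamini-Hochberg over all genes. Intervals used 5.80 moderated degrees of freedom. The pairs come from the replicate numbers in the labels, and the deviations of same-numbered libraries from their group means had rank correlations of -0.999 to -0.989 over 10873 genes.

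The 10 genes and all lists were chosen with earlier results of these data known. Of each other list, the text names genes past an adjusted p of 0.05, otherwise the most abundant gene and up to 3 genes with 1 direction in all 5 pairs. Of the marker lists, the rule takes the most abundant gene and that with the smallest p, and the text gives those of the endothelial, mural and dissociation lists that bear on a result. Alternatives were no replicate block, the 4 batches of the labels, limma-voom, library totals alone, median-of-ratios factors, eBayes with a trend, a prior count of 0.125, a minimum of 10 adjusted counts, an adjusted p of 0.10, and leaving out each pair. The scripts were tested on simulated data. Sums over marker genes are in CPM. Promoters came from RefSeq (GRCm38.p6).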

Additional observations from a re-analysis of the deposited data

Results flagged for a closer look

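In 44 groups of 5 libraries searched, 2 held a library far from the others, where 2.2 are expected by chance. Tnfsf10 in APP/PS1 replicate 4 was at 7.12 log2 CPM, and the nearest of the other APP/PS1 libraries was at 7.31, a gap of 0.73 of the group's range. Il1r1 in control replicate 2 was at 8.19 log2 CPM, and the nearest of the other control libraries was at 8.44, a gap of 0.769 of the range. The limit for 5 libraries is a gap of 0.71 of the range. None of the 10 genes held such a library.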

How the results depend on the processing

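Under no alternative did any of the 10 genes pass an adjusted p of 0.05, the smallest being 0.297. Of 130 values of these genes under the alternatives, 113 kept their direction and 17 reversed, and Nfkb1 and Ltbr never reversed. Without the pairs as a block, 648 of all genes (4.59%) and 4 of the 82 genes of the wider lists passed the adjusted threshold in limma. An unadjusted p under 0.05 was found for 3049 of all genes (21.6%) and 10 of the wider lists. With the 4 batches of the labels, 1 gene passed. An unadjusted p under 0.05 was then found for 1615 of all genes and 8 of the 82 genes of the wider lists. With library totals alone, the median of all genes was -0.04 and 27 of the wider lists were above 0. The sign reversed under limma-voom for Relb (-0.013), Nfkbia (-0.033) and Rel (0.014), under library totals alone for Relb (-0.0072), Nfkbia (-0.027) and Xiap (-0.029), and under median-of-ratios factors for Rel (0.0018). The cause was not tested.

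Leaving out 1 pair at a time gave 0 to 5 of all genes past the adjusted threshold, 748 (without pair 1) to 2008 (without pair 2) at an unadjusted p under 0.05, 0 to 0 of the 10 genes at either, 0 to 0 of the wider lists at the adjusted and 3 (without pair 5) to 11 (without pair 2) at the unadjusted threshold, and 37 to 49 of the wider lists above 0. Of the 10 genes, 2 (without pair 4) to 9 (without pair 2) were above 0, and their median ran from -0.08 to 0.12. The log2 fold change ran from -0.012 to 0.18 for Nfkb2, -0.0024 to 0.12 for Rela, -0.049 to 0.19 for Relb, -0.14 to 0.12 for Nfkbia, -0.14 to 0.075 for Nfkbiz, -0.10 to 0.26 for Tnfaip3, -0.10 to 0.043 for Tnfrsf1a and -0.060 to 0.21 for Birc3. It ran from -0.12 to 0.20 for Rel, -0.028 to 0.052 for Xiap, -0.086 to 0.037 for Tnfsf10, -0.073 to 0.046 for Tnfrsf19 and -0.45 to 0.035 for Ptgs2.

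With 5 pairs, the intervals of Tnfaip3, Nfkbia and Birc3 reach 1.35-fold or more, and differences within them were not resolved. The lowest adjusted count of these genes in any library was 481, and the effect of read depth was not tested.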
